A study of Mus musculus with 12 samples.

Results

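The SR and hnRNP genes measured here were the 31 protein-coding genes of 55401 in the count table whose symbols are *Srsf* with a number or begin with *Hnrnp*. Of these, 11 were *Srsf* genes and 20 were *Hnrnp* genes, and all 31 had enough counts for a test. The rule used names alone. Proteins of the SR family carry stretches rich in serine and arginine, bind exonic enhancers in pre-mRNA and help the spliceosome to use the neighbouring splice sites. Proteins of the hnRNP family coat nascent transcripts and often work against SR proteins at the same exons, and both families also act in mRNA export, stability and translation. Many genes of both families limit their own output by including an exon with a premature stop codon, which sends the transcript to nonsense-mediated decay.

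RNA was sequenced from Pax7-ZsGreen+ satellite cells, the stem cells of skeletal muscle, sorted from mouse hind limb muscle. All mice carried floxed *Cxcr4* alleles (*Cxcr4* FL/FL) and received 5 tamoxifen injections of 80 mg/kg. WT mice lacked cre, while KO mice carried Pax7-creERT2, which acts in cells that express *Pax7*. Quiescent libraries came from freshly sorted cells (4 WT and 4 KO) and activated libraries from cells cultured overnight (2 WT and 2 KO), and the labels do not say whether replicates were separate animals, so p-values measure the spread between these libraries, which may be technical. The labels give no age, while the authors state that all their experiments used adult mice. Per the authors, mice were also kept on a tamoxifen diet after the injections until the end of each experiment.

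Quiescent libraries held 12775593 to 23717013 counts and activated libraries 3172164 to 5427280. Between 11.5% and 40.3% of the counts of activated libraries fell on 1 ribosomal RNA gene, against at most 0.807% in quiescent libraries, and WT activated replicate 2 had both the highest share and the lowest depth. Y-linked transcripts were found in the quiescent libraries and *Xist* in the activated ones, so that culture, sex, depth and ribosomal RNA cannot be told apart. All 8 satellite cell markers were detected in each group, with a summed level of 4981 to 8359 CPM in quiescent and 2250 to 3454 CPM in activated libraries. CPM are read counts scaled to library size with TMM factors. Of these markers, *Myod1* and *Itga7* overlapped between states, and the others were lower in all activated libraries than in all quiescent ones. *Calcr* was at 0 CPM in KO activated replicate 1. The 6 genes of mature muscle fibre summed to 254.7 to 842.8 CPM in quiescent libraries and 6105 to 14790 CPM in activated ones, while 5 smooth muscle and pericyte genes went from 1428 to 2584 CPM to 173.4 to 337.7 CPM. The summed ranges in quiescent and activated libraries were 195.7 to 927.8 and 69.1 to 456.8 CPM for 5 endothelial genes, 280.9 to 2950 and 239.1 to 720.8 CPM for 5 genes of fibroadipogenic progenitors, and 14.2 to 97.5 and 4.62 to 14.1 CPM for 5 hematopoietic genes, of which *Cd52* and *Tyrobp* were at 0 in WT activated libraries. The part of these differences in the results was not tested, and in bulk RNA fewer cells of a type and less RNA per cell cannot be told apart. The deleted gene *Cxcr4* had 59.1 to 112 CPM in quiescent WT and 12.5 to 21.2 CPM in quiescent KO libraries, and 33.3 and 14.4 CPM in activated WT against 5.39 and 13.7 CPM in activated KO libraries.

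Exons with a premature stop were read from the annotation, since the counts sum all transcripts of a gene. Among the members, 19 had at least 1 transcript annotated as a target of nonsense-mediated decay (9 *Srsf* and 10 *Hnrnp* genes), and 22 had a transcript annotated with a retained intron. The lines that follow give, for the 5 genes that changed on activation in both genotypes and have such a cassette exon that no protein-coding transcript of the gene overlaps, the exon from its start to the premature stop, which is in capitals (GENCODE M21 transcripts, GRCm38, 5′ to 3′ on the strand of the gene).
*Srsf7*, chr17:80205054-80205081, minus strand: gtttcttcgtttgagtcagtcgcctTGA
*Srsf3*, chr17:29039454-29039487, plus strand: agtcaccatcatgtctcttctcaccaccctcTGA
*Srsf4*, chr4:131884276-131884390, plus strand: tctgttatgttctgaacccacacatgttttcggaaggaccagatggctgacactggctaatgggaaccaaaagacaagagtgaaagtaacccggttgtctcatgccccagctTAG
*Srsf9*, chr5:115328347-115328428, plus strand: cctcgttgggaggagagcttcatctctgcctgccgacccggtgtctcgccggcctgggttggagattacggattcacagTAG
*Hnrnpl*, chr7:28817335-28817393, plus strand: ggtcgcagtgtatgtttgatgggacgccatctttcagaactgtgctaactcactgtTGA
The whole exons were 460 bases in *Srsf7*, 456 in *Srsf3*, 207 in *Srsf4*, 358 in *Srsf9* and 70 in *Hnrnpl*. The stop lay 28 bases into the exon in *Srsf7* and 115 bases into it in *Srsf4*. Gene counts do not separate transcripts with and without these exons, so their inclusion was not measured.

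RefSeq promoters (GRCm38.p6, 250 bases before to 50 after the start) matched 29 of 31 members, and their median GC content was 68.3%, against 52.7% over all 27025 promoters. The letters GGGCGG, counted on either strand, stood in 23 of 29 member promoters (79.3%) and in 35.9% of all promoters, and CCAAT stood in 16 (55.2%) and 37.9%. TATAAA stood in 4 (13.8%), close to its share of 14.2% over all promoters. The promoters of *Hnrnph1* and *Srsf5*, the genes of each family that fell most, and of *Srsf9*, the SR gene that rose, are printed with GGGCGG, its reverse complement CCGCCC and CCAAT in capitals.
*Hnrnph1*, chr11:50376740-50377039, plus strand: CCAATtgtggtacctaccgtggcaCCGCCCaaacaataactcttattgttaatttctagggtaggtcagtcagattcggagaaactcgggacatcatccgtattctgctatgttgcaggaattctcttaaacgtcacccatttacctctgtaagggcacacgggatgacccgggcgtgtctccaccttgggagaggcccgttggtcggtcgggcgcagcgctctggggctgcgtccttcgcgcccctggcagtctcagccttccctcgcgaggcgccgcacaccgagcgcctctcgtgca
*Srsf5*, chr12:80945249-80945548, plus strand: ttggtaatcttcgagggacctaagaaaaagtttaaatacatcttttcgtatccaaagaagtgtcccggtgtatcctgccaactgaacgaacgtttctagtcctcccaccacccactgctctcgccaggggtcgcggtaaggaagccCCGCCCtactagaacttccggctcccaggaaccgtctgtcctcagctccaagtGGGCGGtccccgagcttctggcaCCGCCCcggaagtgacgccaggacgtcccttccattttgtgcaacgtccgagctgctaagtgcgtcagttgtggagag
*Srsf9*, chr5:115326927-115327226, plus strand: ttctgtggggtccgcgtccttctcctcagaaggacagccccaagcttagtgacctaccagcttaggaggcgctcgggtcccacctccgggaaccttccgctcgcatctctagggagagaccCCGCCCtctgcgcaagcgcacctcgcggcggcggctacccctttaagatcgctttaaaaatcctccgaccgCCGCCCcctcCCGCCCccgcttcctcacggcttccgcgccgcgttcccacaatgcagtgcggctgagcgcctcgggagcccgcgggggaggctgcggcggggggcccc
The 6 GC-rich letters were found 3 times in the promoters of *Srsf5* and *Srsf9*, and once in that of *Hnrnph1*, beside 1 CCAAT.

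To compare levels between genes, CPM were divided by the length of the merged exons. In quiescent WT cells the highest levels were those of *Hnrnpa0* at 313 ± 84.9 CPM per kilobase (SD, n = 4), *Srsf5* at 312 ± 65.2 and *Hnrnph1* at 307 ± 61.7, followed by *Hnrnpa1* at 299 ± 49.7 and *Hnrnpa2b1* at 291 ± 56.3. These 5 levels differed by less than their SD. *Srsf2*, a protein of nuclear speckles, was next among the SR genes at 243 ± 61.9 CPM per kilobase. The lowest levels per kilobase were those of *Hnrnpr* at 3.83 ± 0.530 and *Srsf12* at 0.486 ± 0.396. The place of *Hnrnpr* depends on its merged exons, which at 22199 bases were the longest of the members. Before division by length it had 68.1 to 93.2 CPM, above *Srsf1*, *Srsf4* and *Srsf9* (at most 48.6 CPM). In activated WT cells *Hnrnpa0* was still the highest at 450 ± 8.13 CPM per kilobase (SD, n = 2), with *Hnrnpab* at 336 ± 25.3 in the following place, whereas *Srsf5* held place 10 at 68.2 ± 12.05 and *Hnrnph1* place 14 at 48.6 ± 11.8. The authors' FPKM of *Hnrnph1*, 1 value per group, were 297.6 in quiescent and 49.3 in activated WT cells.

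**Figure D1:**
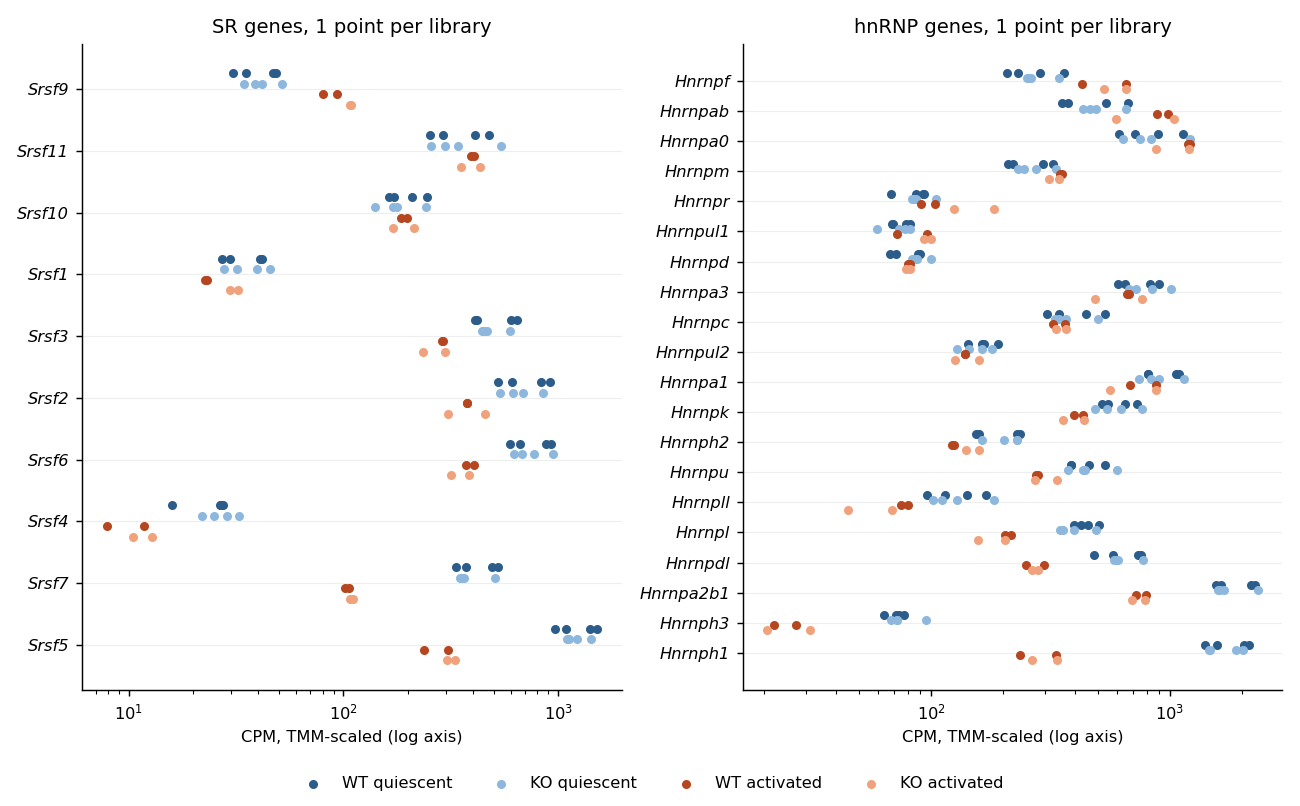
Level of 30 members in each of the 12 libraries, as TMM-scaled CPM on a log axis, 1 point per library, with *Srsf12* left out for its low counts. For *Srsf5*, *Srsf7*, *Hnrnph1*, *Hnrnph3* and *Hnrnpa2b1* the 4 activated libraries lie below all 8 quiescent libraries, and for *Srsf9* and *Hnrnpf* above them.

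Activated cells were compared with quiescent cells in each genotype, to see which splicing factors change when satellite cells leave quiescence. Most called changes were falls, and among called members they were largest in *Hnrnph1*, *Srsf5* and *Srsf7*. In WT cells 14 of 31 members passed edgeR's quasi-likelihood test at an adjusted p under 0.05, which was 45.2% of the members against 29.8% of all 25771 genes tested. Of these, 3 were higher in activated cells (9.68%, against 11.5% of all genes) and 11 were lower (35.5%, against 18.3%). In KO cells 15 members passed (48.4%, against 33.7% of all genes), 3 higher (against 13.3%) and 12 lower (38.7%, against 20.4%). A stricter call, which also asks for a change over 2-fold and a mean count over 10, left 1 member higher (9.35% of all genes) and 8 lower (17%) in WT, and 2 higher (10.7%) and 10 lower (19%) in KO cells. Among the 6838 genes with an average log2 CPM over 4, the shares were 52.5% called in WT and 56.3% in KO cells, with 29.2% and 30.7% lower, so that the share of members called was below that of other well-expressed genes. The median log2 fold change of the members was -0.60 in WT and -0.46 in KO cells, against -0.92 and -0.96 over all genes tested and -0.14 and -0.10 over the well-expressed genes.

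The genotypes, which share no library in these comparisons, called 13 members in common and in the same direction, 11 lower (*Srsf2*, *Srsf3*, *Srsf4*, *Srsf5*, *Srsf6*, *Srsf7*, *Hnrnpa2b1*, *Hnrnpdl*, *Hnrnph1*, *Hnrnph3* and *Hnrnpl*) and 2 higher (*Srsf9* and *Hnrnpf*). These were 41.9% of the members, against 23.5% of all genes tested and 46% of the well-expressed genes called alike in both genotypes. Lower in both were 35.5% of the members, against 14% of all genes and 25.5% of the well-expressed ones. Higher in both were 6.45%, against 9.48% and 20.5%. A further 3 members passed in 1 genotype, *Hnrnpab* in WT and *Hnrnpll* and *Hnrnpr* in KO cells, and no member differed in its activation change between genotypes when that difference was tested. In the SR family 7 of 11 genes were called in each genotype, and in the hnRNP family 7 of 20 in WT and 8 of 20 in KO cells. Without WT activated replicate 2, 6 members passed in WT cells, and without KO activated replicate 2, 9 passed in KO cells, where the remaining activated library is assumed to vary like the other groups. *Srsf5*, *Srsf7*, *Srsf9*, *Hnrnph1*, *Hnrnph3* and *Hnrnpa2b1* passed in both genotypes in every fit (48 when each genotype is counted separately).

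**Figure D2:**
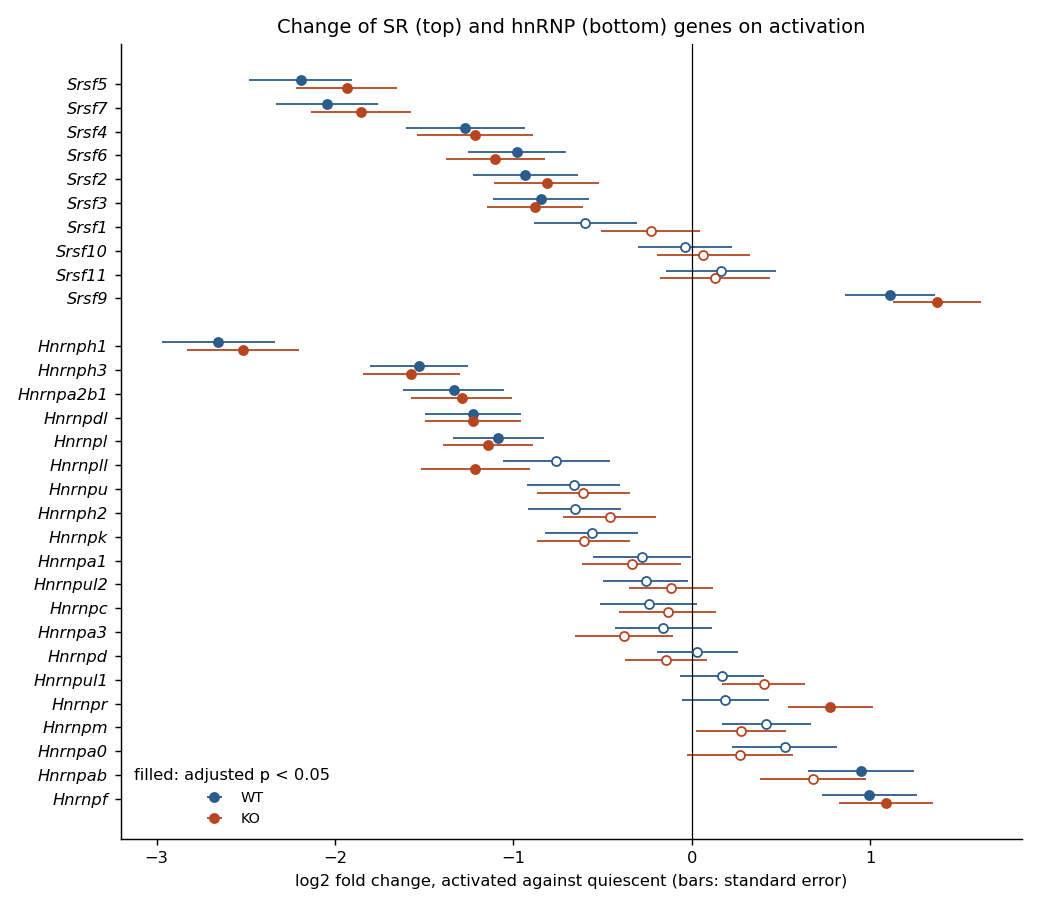
Log2 fold change of activated against quiescent cells for 30 members, with its standard error, in WT (blue) and KO (red) cells, with filled points at an adjusted p under 0.05. *Hnrnph1*, *Srsf5* and *Srsf7* lie between -2.66 and -1.85 in both genotypes, and *Srsf9* and *Hnrnpf* lie between 0.99 and 1.38.

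*Srsf5* (ENSMUSG00000021134, chromosome 12, 80945504 to 80950507, GRCm38) encodes an SR protein with a pair of RNA recognition motifs. It had 1084, 971, 1522 and 1404 CPM in quiescent WT, 1225, 1119, 1099 and 1419 in quiescent KO, 306 and 238 in activated WT and 304 and 331 CPM in activated KO libraries. Every activated library lay far below every quiescent library. In log2 units it changed by -2.19 in WT (SE 0.29, adjusted p = 1.08e-05, edgeR's quasi-likelihood test) and -1.94 in KO cells (SE 0.28, adjusted p = 3.11e-05), which is a fall of 4.57-fold and 3.82-fold.

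*Srsf7* (ENSMUSG00000024097, chromosome 17, 80200080 to 80207307) encodes an SR protein with a zinc knuckle that also serves as an adaptor in mRNA export. It had 372, 333, 525 and 494 CPM in quiescent WT, 352, 349, 363 and 505 in quiescent KO, 107 and 102 in activated WT and 110 and 107 CPM in activated KO libraries. The 4 activated values were close together and less than the lowest quiescent value. On the log2 scale its change was -2.05 in WT (SE 0.29, adjusted p = 2.00e-05, edgeR) and -1.85 in KO cells (SE 0.28, adjusted p = 4.47e-05).

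*Srsf4* (chromosome 4, 131873617 to 131901706) was expressed at a low level. It had 27.5, 16.0, 26.5 and 27.02 CPM in quiescent WT, 28.5, 21.9, 25.05 and 32.8 in quiescent KO, 11.8 and 7.88 in activated WT and 12.8 and 10.5 CPM in activated KO libraries, and the states did not overlap. Its activated values rest on 18 to 72 counts per library. In log2 units it changed by -1.27 in WT (SE 0.33, adjusted p = 0.00678, edgeR) and -1.22 in KO cells (SE 0.33, adjusted p = 0.00736), and it missed the threshold in WT cells without WT activated replicate 2 and in KO cells without KO activated replicate 2.

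The other SR genes that fell changed less. *Srsf6* fell by 0.98 on the log2 scale in WT (adjusted p = 0.0110, edgeR) and by 1.10 in KO cells (0.00454), and lost its call in WT cells without either activated library (-0.97 and -0.86) and in KO cells without activated replicate 2 (-0.95). *Srsf3*, whose protein adapts mRNA to the export machinery, fell by 0.85 (adjusted p = 0.0227, edgeR) and 0.88 (0.0166). It lost its call in WT cells without quiescent replicate 3 or either activated library (-0.72 to -0.78), and in KO cells without either activated library (-1.05 and -0.71). *Srsf2* had 610, 522, 832 and 911 CPM in quiescent WT, 686, 534, 614 and 852 in quiescent KO, 377 and 376 in activated WT and 458 and 305 CPM in activated KO libraries, and fell by 0.93 (adjusted p = 0.0221, edgeR) and 0.81 (0.0386). The states did not overlap in *Srsf2*, but it lost its call in WT cells without quiescent replicate 3 or 4 or either activated library (-0.79 to -0.87). In KO cells it lost its call without quiescent replicate 1, 3 or 4 or either activated library (-0.53 to -1.14). The KO call was also lost without the ribosomal RNA gene (-0.80) and with the compared groups fitted alone (-0.78).

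*Srsf9* (ENSMUSG00000029538, chromosome 5, 115327177 to 115333080) was the SR gene that rose. It had 35.3, 30.5, 48.6 and 46.9 CPM in quiescent WT, 38.7, 34.4, 41.6 and 51.5 in quiescent KO, 93.8 and 80.1 in activated WT and 108 and 108 CPM in activated KO libraries. All activated libraries were above all quiescent ones. On the log2 scale its change was 1.11 in WT (SE 0.25, adjusted p = 0.00214, edgeR) and 1.38 in KO cells (SE 0.25, adjusted p = 0.000255), a rise of 2.16-fold and 2.59-fold.

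For 4 SR genes no change was called in either genotype. *Srsf1*, the founding member of the family, had log2 fold changes of -0.60 in WT and -0.23 in KO cells (adjusted p = 0.120 and 0.514, edgeR). *Srsf10*, which acts as a repressor when dephosphorylated, was at -0.04 and 0.06, and *Srsf11* at 0.16 and 0.13. *Srsf11* was called in WT cells with the replicate number as a block over all libraries (0.55). *Srsf12* had 7 to 75 counts in quiescent libraries and 3, 0, 3 and 0 counts in the activated ones, too few to compare.

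In the hnRNP family the genes of the H/F group, whose proteins bind runs of G, went in different directions. *Hnrnph1* (ENSMUSG00000007850, chromosome 11, 50376990 to 50386528) had 1575, 1402, 2149 and 2043 CPM in quiescent WT, 1886, 1465, 1471 and 2036 in quiescent KO, 333 and 235 in activated WT and 264 and 336 CPM in activated KO libraries. The highest activated library was far below the lowest quiescent library. Its changes of -2.66 in WT (SE 0.32, adjusted p = 3.36e-06, edgeR) and -2.52 in KO cells (SE 0.31, adjusted p = 4.92e-06) were the largest log2 changes of the called members.

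*Hnrnph3* had 71.1, 63.3, 77.2 and 73.4 CPM in quiescent WT, 72.1, 71.6, 68.1 and 95.5 in quiescent KO, 27.1 and 21.9 in activated WT and 20.5 and 31.03 CPM in activated KO libraries. It fell in both genotypes without overlap, by 1.53 (adjusted p = 0.000261, edgeR) and 1.57 (0.000169) on the log2 scale. *Hnrnpf* (chromosome 6, 117900324 to 117925622), in contrast, had 209, 232, 287 and 360 CPM in quiescent WT, 262, 256, 252 and 343 in quiescent KO, 429 and 654 in activated WT and 653 and 531 CPM in activated KO libraries. All activated libraries were above the quiescent ones, a log2 change of 0.99 in WT (SE 0.27, adjusted p = 0.00786, edgeR) and 1.09 in KO cells (SE 0.26, adjusted p = 0.00358). It missed the threshold in WT cells without WT activated replicate 2 (0.72) and in KO cells without KO activated replicate 1 (0.93). *Hnrnph2*, the X-linked member of this group, had log2 fold changes of -0.66 and -0.46 that did not pass (adjusted p = 0.0641 and 0.167, edgeR). In WT cells *Hnrnph2* was called when WT quiescent replicate 1 was left out (-0.74) or when replicate number was blocked within each state (-0.64).

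Among the genes whose symbols begin with *Hnrnpa*, some of which encode abundant core proteins of hnRNP particles, *Hnrnpa2b1* (chromosome 6, 51460932 to 51469894) fell. It had 1556, 1643, 2190 and 2281 CPM in quiescent WT, 1591, 1682, 1627 and 2341 in quiescent KO, 722 and 798 in activated WT and 789 and 692 CPM in activated KO libraries, so that the states did not overlap. In log2 units it changed by -1.34 in WT (SE 0.28, adjusted p = 0.00128, edgeR) and -1.29 in KO cells (SE 0.28, adjusted p = 0.00153). Its relatives did not follow: *Hnrnpa1* was at -0.28 and -0.34 and *Hnrnpa3* at -0.16 and -0.38 on the log2 scale, with no call. Both have many pseudogene copies, which took 26.4% of the reads on *Hnrnpa1* and its copies and 12.8% for *Hnrnpa3* in KO activated replicate 2, so their level there is uncertain. The same limit holds there for *Hnrnpk* (16.0%) and *Hnrnpc* (11.4%). Copies of *Hnrnpk* took 8.56% to 16.0% in activated libraries, against 5.41% to 6.09% in quiescent ones. For *Srsf3* these shares were 4.93% to 7.68% and 0.853% to 1.40%. *Hnrnpa0* had 717, 613, 896 and 1132 CPM in quiescent WT, 750, 638, 836 and 1216 in quiescent KO, 1189 and 1220 in activated WT and 1198 and 877 CPM in activated KO libraries, which overlapped between states in KO cells, and its log2 fold changes of 0.52 and 0.27 were not called. With the replicate number as a block over all libraries, *Hnrnpa0* was called in both genotypes (0.85 and 0.59), and with a block within each state in WT cells (0.56). *Hnrnpab* was higher in activated WT cells by 0.95 (adjusted p = 0.0199, edgeR) and had 0.68 in KO cells (0.0830). Its calls turned on single libraries and on the processing. In WT cells it was not called without quiescent replicate 1 (0.86) or activated replicate 2 (0.93), or with scaling by library totals (0.81). In KO cells it was called without quiescent replicate 4 (0.83) or activated replicate 2 (1.04). A KO call was also gained with a filter at a mean count of at least 10 (0.76). The replicate number as a block gave a KO call too, over all libraries (0.93) and within each state (0.66).

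*Hnrnpdl*, a relative of the AU-rich element binding protein encoded by *Hnrnpd*, had 578, 482, 756 and 737 CPM in quiescent WT, 609, 585, 594 and 771 in quiescent KO, 296 and 249 in activated WT and 282 and 264 CPM in activated KO libraries. The states did not overlap, and it fell by 1.23 on the log2 scale in both genotypes (adjusted p = 0.00165 and 0.00145, edgeR), and missed the threshold in WT cells without WT activated replicate 2 (-1.05). *Hnrnpd* itself was at 0.03 and -0.14 on the log2 scale, with no call.

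*Hnrnpl* (chromosome 7, 28808541 to 28822266), whose protein binds CA-rich RNA, had 424, 398, 456 and 504 CPM in quiescent WT, 346, 356, 398 and 493 in quiescent KO, 217 and 203 in activated WT and 204 and 157 CPM in activated KO libraries. It fell without overlap by 1.08 (adjusted p = 0.00293, edgeR) and 1.14 (0.00173), and missed the threshold in WT cells without WT activated replicate 2 (-0.98) and in KO cells without KO activated replicate 2 (-0.95). Its paralog *Hnrnpll* was at -0.76 in WT cells (adjusted p = 0.0626, edgeR) and fell by 1.21 in KO cells (0.00484). It was called in WT cells without WT quiescent replicate 2 (-0.84) or KO quiescent replicate 4 (-0.75), and not in KO cells without activated replicate 2 (-0.92). Scaling by library totals (-0.89) and the replicate number as a block within each state (-0.72) also gave a call in WT cells.

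The other hnRNP genes were not called in either genotype, apart from *Hnrnpr*, which was at 0.19 in WT cells and rose by 0.78 in KO cells (adjusted p = 0.0166, edgeR). *Hnrnpr* was not called in KO cells without KO activated replicate 2 (0.49) or with scaling by library totals (0.66). *Hnrnpu*, which binds nuclear scaffold DNA and RNA, was at -0.66 and -0.61 on the log2 scale, *Hnrnpk*, which binds C-rich sequence, at -0.56 and -0.61, and *Hnrnpc*, which binds U-rich tracts, at -0.24 and -0.14. With DESeq2, *Hnrnpu* was called in WT and KO cells (-0.59 in both) and *Hnrnpk* in KO cells (-0.59). *Hnrnpu* was also called in WT cells with scaling by library totals (-0.79) or without KO quiescent replicate 4 (-0.65). With the replicate number as a block within each state, both genes were called in both genotypes (-0.65 and -0.60 for *Hnrnpu*, -0.55 and -0.59 for *Hnrnpk*). *Hnrnpm* was at 0.42 and 0.28, *Hnrnpul1* at 0.17 and 0.40, and *Hnrnpul2* at -0.26 and -0.12. *Hnrnpm* was called in WT cells with the replicate number as a block over all libraries (0.61).

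Within each family the mix of transcripts was different in activated cells. SR genes took 0.366% to 0.513% of the counts of quiescent WT libraries and 0.249% and 0.150% of activated WT libraries, and 0.399% to 0.467% against 0.250% and 0.175% in KO. hnRNP genes took 0.966% to 1.18% against 0.841% and 0.567% in WT, and 1.01% to 1.18% against 0.897% and 0.566% in KO. With the ribosomal RNA gene left out of the total, activated WT libraries had 0.285% and 0.251% on SR genes and 0.962% and 0.951% on hnRNP genes, and activated KO libraries 0.283% and 0.247% and 1.01% and 0.795%. The SR share was then still below all quiescent libraries, while the hnRNP share of WT lay just below the lowest quiescent WT library, at 0.972%.

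The shares of single genes within a family do not depend on the library total. *Srsf5* took 28.8% ± 0.955 of SR counts in quiescent WT (SD, n = 4) and 12.7% ± 1.72 in activated WT libraries (SD, n = 2), and *Srsf7* 9.95% ± 0.217 and 4.87% ± 0.0485. *Srsf11* went from 8.16% ± 0.775 to 18.7% ± 0.409, *Srsf10* from 4.57% ± 0.390 to 8.96% ± 0.795 and *Srsf9* from 0.930% ± 0.0182 to 4.05% ± 0.282, although the CPM of *Srsf10* and *Srsf11* had no called change. In the hnRNP family *Hnrnph1* went from 16.9% ± 1.03 to 3.73% ± 1.05 and *Hnrnpa2b1* from 18.1% ± 0.644 to 9.91% ± 0.305, while *Hnrnpa0* went from 7.84% ± 0.800 to 15.7% ± 0.338 and *Hnrnpab* from 4.50% ± 0.547 to 12.2% ± 0.436. In KO libraries *Srsf5* likewise went from 29.4% ± 1.86 to 14.8% ± 2.33 and *Hnrnph1* from 16.4% ± 1.80 to 4.19% ± 1.41. The shares of *Srsf5*, *Srsf7*, *Srsf9*, *Srsf10*, *Srsf11*, *Hnrnph1*, *Hnrnpa2b1*, *Hnrnpa0* and *Hnrnpab* did not overlap between states in either genotype. Shares within a family add up to a fixed total, so a fall of abundant members raises the shares of the others.

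**Figure D3:**
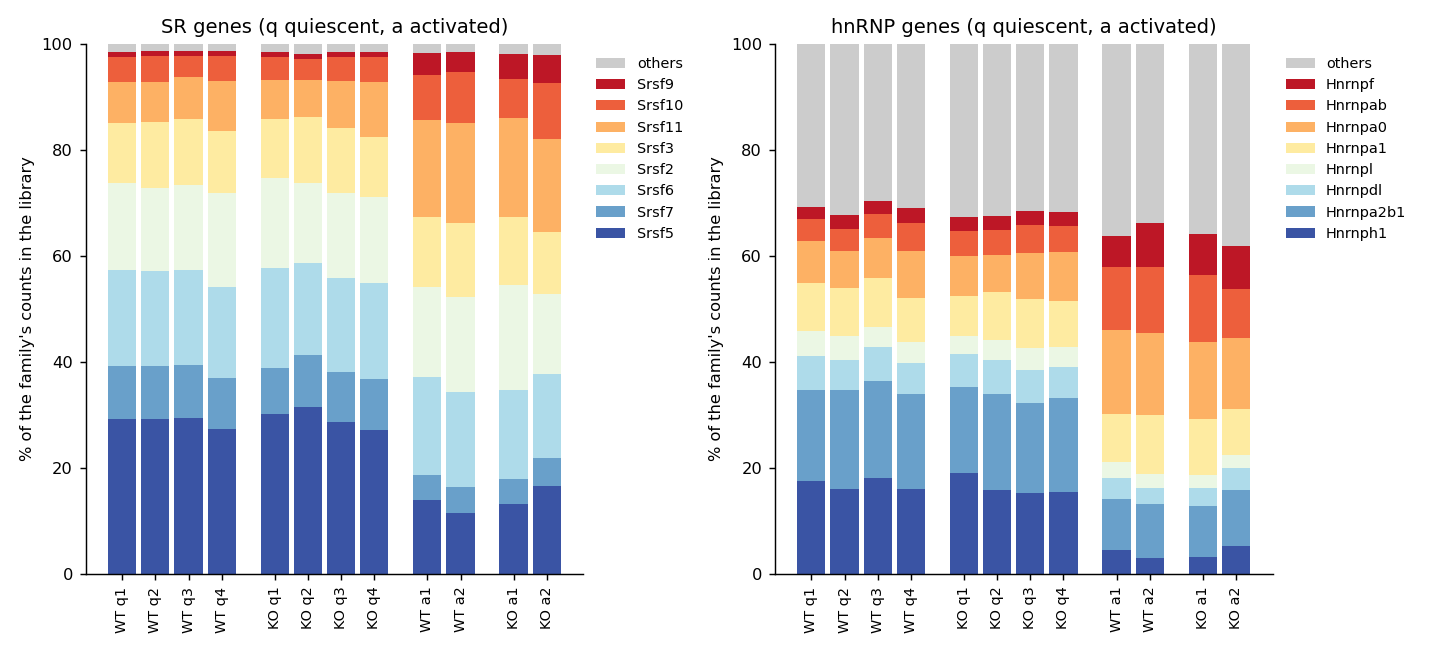
Share of each family's counts taken by its larger members in each library, in percent of the family's counts, as stacked bars with other members in grey. *Srsf5* (dark blue, left) takes 27.4% to 29.3% of SR counts in quiescent WT libraries and 11.5% and 13.9% in activated WT libraries, and *Hnrnph1* (dark blue, right) takes 16.0% to 18.1% and 2.98% and 4.47% of hnRNP counts.

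KO and WT cells were compared in each state, to see whether loss of *Cxcr4* alters these genes. No member passed in quiescent cells (edgeR's quasi-likelihood test), where 4 of all genes tested did (0.0155%; 0.00776% higher and 0.00776% lower, all of them also by the stricter call), and none of the members had an unadjusted p under 0.05. No member passed in activated cells, where 13 genes did (0.0504%; 0.031% higher and 0.0194% lower, all of them also by the stricter call), and 1 member had an unadjusted p under 0.05. Of all 25771 genes tested, 448 in quiescent and 2158 in activated cells had an unadjusted p under 0.05 (edgeR). No member passed for the difference of the KO effect between states, where no gene did (0%) and 1699 genes had an unadjusted p under 0.05, none of them a member. Counts over all genes depended on the tool and the filter, with 144 genes called by DESeq2 in activated cells and 47 for the difference, and 334 and 170 by edgeR without a filter on low counts. DESeq2 and all the other alternative fits also called no member in these comparisons.

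In quiescent cells the log2 fold changes of the 30 members other than *Srsf12* were between -0.16 and 0.16, and all 30 of their 95% intervals, which lay between -0.58 and 0.66, were within a 2-fold change. The smallest unadjusted p was that of *Hnrnpd*. It had 71.4, 67.2, 89.7 and 88.1 CPM in WT and 86.9, 85.2, 82.8 and 99.8 CPM in KO libraries, which overlapped, and its log2 change was 0.16 (SE 0.18, unadjusted p = 0.382, adjusted p = 1, edgeR). With 2 libraries per genotype the intervals in activated cells were wider, from -1.16 to 1.26, and 26 of 30 lay within a 2-fold change.

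*Hnrnpr* had the smallest p in activated cells and for the difference between states. It had 86.1, 68.1, 93.2 and 92.8 CPM in quiescent WT, 82.8, 86.6, 84.4 and 105 in quiescent KO, 90.5 and 103 in activated WT and 124 and 183 CPM in activated KO libraries. The activated KO libraries were above all others, replicate 2 most. In activated cells KO differed from WT by 0.67 on the log2 scale (SE 0.28, unadjusted p = 0.0298, adjusted p = 0.536, edgeR), and it was 0.30 without KO activated replicate 2. The difference between states was 0.59 (SE 0.35, adjusted p = 0.836, edgeR) and did not pass. KO activated replicate 2 also had the highest share of reads on pseudogene copies of members. The 1 copy of *Hnrnpr* took 9 reads there, beside 801 on *Hnrnpr* itself.

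**Figure D4:**
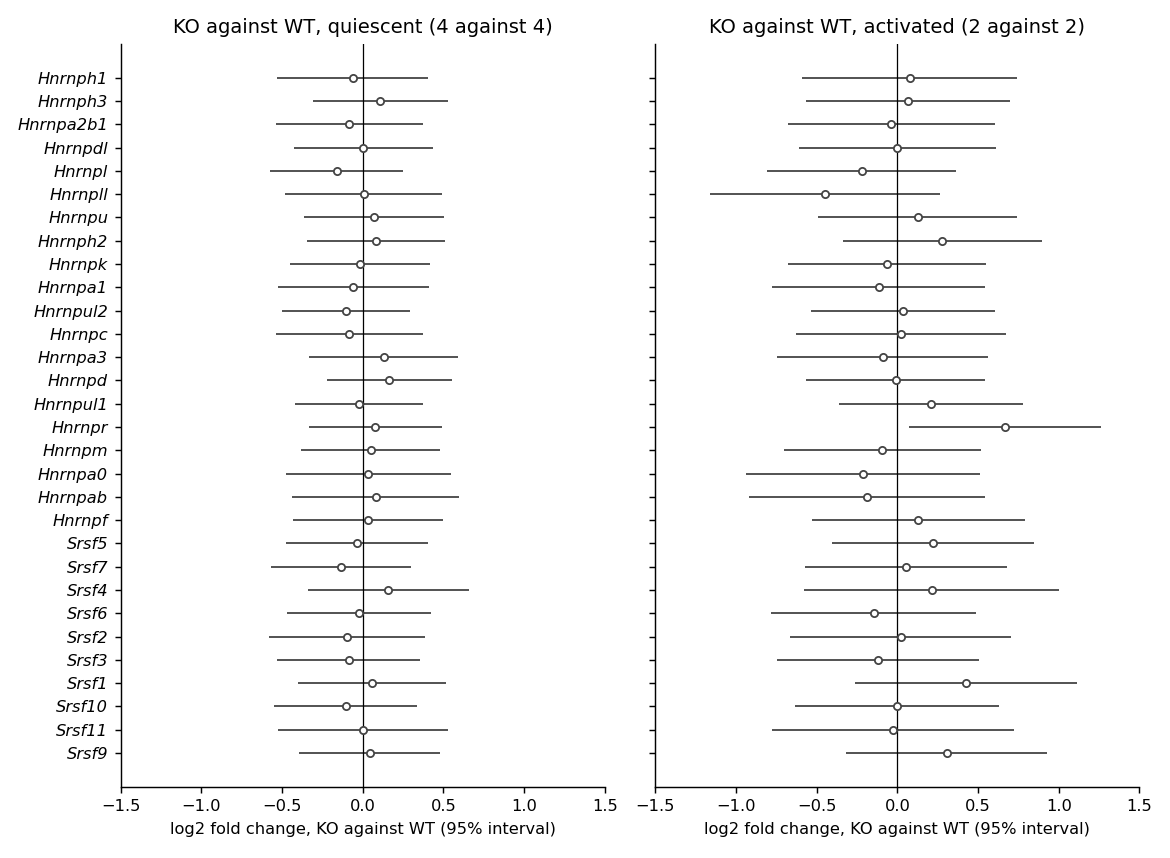
Log2 fold change of KO against WT with its 95% interval for 30 members in quiescent cells (left, 4 against 4 libraries) and activated cells (right, 2 against 2). All intervals in quiescent cells span 0, and in activated cells all but that of *Hnrnpr* do.

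Other genes of splicing were counted in 9 lists, to be read against the shares of well-expressed genes called higher (23.3% in WT and 25.6% in KO cells) and lower (29.2% and 30.7%), and of all genes (11.5% and 13.3% higher, 18.3% and 20.4% lower). The lists are small, and no list was tested against other genes. Of 9 SR protein kinases, which control where SR proteins are and how they bind, 4 fell in WT and 4 in KO cells and none rose, with a list median of -0.76 in both, against -0.92 and -0.96 over all genes and -0.14 and -0.10 over well-expressed ones. *Clk1*, a nuclear kinase of SR proteins, had 375, 365, 524 and 483 CPM in quiescent WT, 347, 371, 380 and 481 in quiescent KO, 64.7 and 72.2 in activated WT and 49.3 and 58.6 CPM in activated KO libraries. All activated libraries were below all quiescent ones, and its log2 change was -2.68 in WT (adjusted p = 9.80e-07, edgeR) and -2.87 in KO cells (adjusted p = 4.40e-07). *Clk3* fell by 1.58 and 1.49. Nuclear import receptors went the other way, with 2 of 3 higher in both genotypes: *Tnpo3*, which carries SR proteins into the nucleus, rose by 1.71 and 1.61, and *Tnpo2* by 0.94 and 0.79.

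Of 15 SR-related proteins, 6 fell in WT and 4 in KO cells and none rose, including the speckle protein gene *Srrm2* (-1.93 and -1.86) and the splicing activator gene *Tra2a* (-1.26 and -1.43). Of 14 hnRNP proteins with other names, 4 fell and 1 rose in each genotype. Among them, *Pcbp2* fell by 1.68 and 1.37, and *Ptbp1*, which represses many exons by binding pyrimidine tracts, by 1.47 and 1.36.

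Core spliceosome genes were counted in 3 lists. Of 7 Sm proteins, 3 rose in both genotypes (*Snrpd1* by 1.30 and 1.41, *Snrpd3* by 1.29 and 1.20), and 1 fell in KO cells. Of 16 U1 and U2 proteins, 4 rose and 1 fell in WT cells and 8 rose and 2 fell in KO cells. *Sf3b5* rose by 2.08 and 2.01 and *Snrpb2* by 0.97 and 1.40, while *Sf3b1*, of the same branch site complex as *Sf3b5*, fell by 2.07 and 2.28. Of 11 tri-snRNP and Prp19 proteins tested, 5 rose in each genotype and 1 fell in KO cells, with *Prpf31* at 1.87 and 1.86 and *Eftud2* at 1.09 and 1.13. The list medians in WT cells were 0.32, 0.42 and 0.67.

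Of 12 muscle splicing regulators, 2 rose and 3 fell in WT cells and 3 rose and 1 fell in KO cells. *Rbfox1* rose by 3.04 and 3.51 and *Rbm24* by 1.09 and 1.89, and *Mbnl2* fell by 1.59 and 0.73. These rises stood beside the higher level of mature fibre genes in activated libraries given at the start, and their part in them was not tested. Of 8 nonsense-mediated decay genes, 2 rose in both genotypes (*Smg5* by 1.07 and 1.27, *Upf2* by 0.67 and 1.07), and 1 fell in WT cells. No gene of the 9 lists passed for KO against WT in either state.

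**Figure D5:**
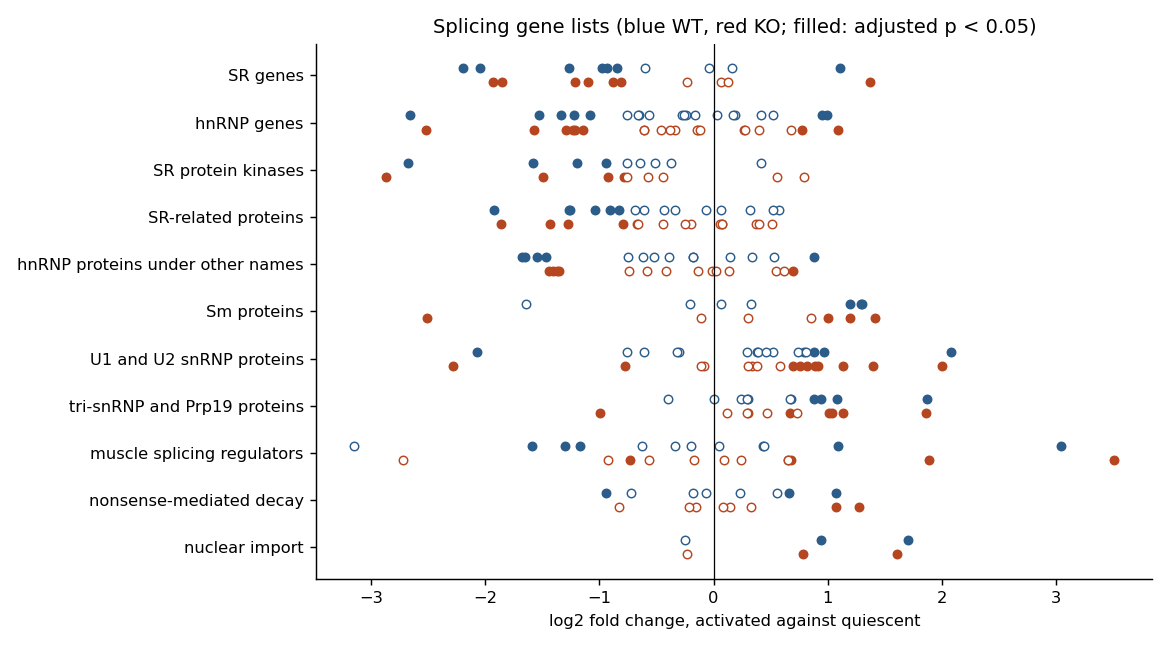
Log2 fold change of activated against quiescent cells for the genes of each splicing list in WT (blue) and KO (red) cells, 1 point per gene, with filled points at an adjusted p under 0.05 and *Srsf12* left out. Filled points of SR kinases and SR-related proteins all lie below 0, and those of Sm, U1 and U2 and tri-snRNP proteins lie mostly above 0.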

How the data were processed

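The members, lists and tests were chosen with earlier results of these data known. Per the authors, reads were trimmed with Trim Galore 0.6.0, aligned to GRCm38 by STAR 2.7.2a and assigned to GENCODE genes by Rsubread. The deposited table holds raw counts for 12 libraries, and how strand and reads with several mapping places were treated is not given in the sources used here. The authors also deposited FPKM, 1 value per group, combined in a way that is not stated, and for 30 members these were 0.964 to 1.03 times the mean CPM per kilobase.

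Libraries were grouped by the labels. Genes were filtered with edgeR's filterByExpr (25771 left), scaled by TMM and fitted with 1 mean per group (edgeR 4.0.16, R 4.3.3). Contrasts were tested by the quasi-likelihood F test with Benjamini-Hochberg adjustment over all genes, standard errors were taken from the fold change and F, and 95% intervals from the t distribution of that test. Every member is named. Values of each library are given for the 4 *Srsf* and 6 *Hnrnp* genes with the largest mean change among those called alike in both genotypes, for the smallest p of each KO comparison and for the highest levels per kilobase (2 per family). From each list, at most the 2 highest and 2 lowest genes called in both genotypes are named, with *Clk1* and *Ptbp1*. One gene that this choice would name is not reported here. Exon lengths and transcripts are from GENCODE M21, where 55141 of 55401 gene IDs were found, and pseudogene copies were matched with blastn 2.17.0 (90% identity over 80% of at least 200 bases). Protein sequences were not used here.

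Alternatives were other scaling (DESeq2 size factors or library totals), no filter or a mean count of at least 10, no ribosomal RNA gene, DESeq2 1.42.0, the compared groups alone, a robust fit, the replicate number as a block, members summed with their copies, a stricter call (also over 2-fold and a mean count over 10) and leaving out each library. Quiescent libraries were deeper (12775593 to 23717013 counts) than activated ones (3172164 to 5427280), so that changes in activated cells are less precise. No replicate pair was a duplicate (chi-square per degree of freedom at least 15.4).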

Additional observations from a re-analysis of the deposited data

Results flagged for a closer look

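In quiescent groups of 4 libraries, 1 library stood apart from the other 3 by Dixon's 95% criterion for 7 values among 62 gene and group pairs, where chance gives about 1 in 20. KO quiescent replicate 4 was above the other KO quiescent libraries in 6 of these: *Hnrnpa2b1* at 2341 CPM (others 1591 to 1682), *Hnrnpdl* at 770.6 (585.0 to 609.2), *Hnrnpf* at 343.2 (252.0 to 262.3), *Hnrnph3* at 95.5 (68.1 to 72.1), *Hnrnpr* at 105.2 (82.8 to 86.6) and *Srsf7* at 505.5 CPM (349.0 to 362.9). This library had the lowest TMM factor of the quiescent libraries, 0.894, and with CPM on library totals *Srsf7* alone stood apart. *Srsf4* was at 16.0 CPM in WT quiescent replicate 2, below the other WT quiescent libraries (26.5 to 27.5).

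Reads on 70 pseudogene copies of 14 members, which enter no comparison, made up 8.69% of the reads on these members and their copies in KO activated replicate 2 and 0.792% to 2.85% in the other 11 libraries. The copies of *Hnrnpa1* took 882 reads there and 97 to 145 in the other activated libraries. All annotated pseudogenes together took 1.09% of the counts in KO activated replicate 2 and 0.397% to 0.827% in the others. Whether this has a part in the values of that library was not tested beyond the fit that sums members with their copies, in which 14 members passed in WT and 15 in KO cells.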

How the results depend on the processing

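Over all 31 members and both genotypes, 1369 of 1426 alternative values for activation kept their side of the threshold, 32 lost the call (11 of them of *Srsf2*), 25 gained it, and no called member changed direction. The count of members passing in WT cells was 9 under the stricter call and ranged from 6 (without WT activated replicate 2) to 16 when single libraries were left out. In KO cells this range was 9 (without KO activated replicate 2) to 15. The other alternatives gave 14 to 19 members in WT and 12 to 18 in KO cells. No member passed for KO against WT or the difference under any setting (range 0 to 0). With library totals in place of TMM, 2 members were higher in each genotype and 13 (WT) and 12 (KO) lower, and the median log2 fold change of all genes went from -0.92 to -1.03 in WT cells.

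The ratio of activated to quiescent family shares was 0.455 (WT) and 0.495 (KO) for SR and 0.657 and 0.677 for hnRNP genes. On CPM per kilobase it was 0.212, 0.259, 0.376 and 0.417, and without the ribosomal RNA gene 0.888 for hnRNP genes in WT; the cause was not tested. Leaving out single libraries gave 0.342 to 0.568, 0.408 to 0.583, 0.529 to 0.784 and 0.524 to 0.830.

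Quiescent WT and KO libraries with the same replicate number correlated at 0.05, 0.122, -0.05 and 0.296, and those with different numbers at -0.208 to 0.0753. The values of replicates 2 and 4 were above all of the latter, so whether the number pairs quiescent libraries was not settled. In activated cells the value was -0.0236. It cannot decide this, since 2 libraries of a group deviate from their mean as mirror images. The main comparisons used no block. With the replicate number as a block, 17 members passed in WT and KO cells alike, and 19 and 18 with a block within each state. With 2 activated libraries per genotype, changes under 2-fold could be missed.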
